A study of Mus musculus with 4 samples.

Results

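Naive-like and central memory T cells were described in mouse mammary tumours as the cells that carry T cell receptor transcripts together with Lef1, Ccr7 or Dapl1. A barcode entered when it held 500 or more unique molecular identifiers (UMIs, each standing for 1 captured transcript) from 250 or more genes, with no more than 20% of them mitochondrial. It was kept as a naive-like T cell when Cd3d, Cd3e and Cd3g together had at least 1 UMI and Lef1, Ccr7 and Dapl1 together had at least 2. Foxp3 and Trdc had to be at 0, Mki67 and Top2a together below 2 and Lyz2 below 3 UMIs. These limits were meant to set aside regulatory, gamma-delta and dividing T cells and phagocytes. Such a cell would still pass where the transcript in question was not captured. The rule found 485 cells among 14555 kept barcodes, and 4366 further T cells met every part of it except the Lef1, Ccr7 and Dapl1 part. The genes named in the rule chose the cells, so their values are given as a description only.

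The 4 samples were day 14 tumours of the HER2+ mouse mammary tumour line H605, grown from cells placed in the mammary pad of FVB/NJ hosts. The hosts were WT or IL1α-/-, with 2 tumours in either group, and the mice were 6 to 8 weeks old, a figure that stands in the labels' field for cell type. The transplanted cells were the same line in both groups, so only the host lacked interleukin 1α, an alarm cytokine of the interleukin 1 family. The labels tell of 2 pairs of tumours collected on separate days, without saying whether the replicate number is that day. Nothing in them speaks of pooled animals or of the origin of the IL1α-/- allele.

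A naive T cell has not yet met its antigen and circulates between blood and lymph nodes; a central memory T cell has met it and kept that route. Both are held in a quiescent state by the transcription factors Lef1, Tcf7 and Klf2, enter lymph nodes with the help of the chemokine receptor Ccr7, leave them through the sphingosine phosphate receptor S1pr1, and live on interleukin 7 through Il7r. Inside tumours, T cells of this kind are usually few beside effector and exhausted T cells, which carry chemokines, granzymes and checkpoint receptors instead.

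The naive-like T cells numbered 178 in WT replicate 1, 113 in WT replicate 2, 73 in IL1α-/- replicate 1 and 121 in IL1α-/- replicate 2. Their median depth in the same sample order was 2433, 4413, 1332 and 3528 UMIs, and their summed counts were 609221, 581615, 119361 and 481224 UMIs. IL1α-/- replicate 1 was thus the thinnest sample by cells and by depth, and its whole library was also the smallest, with 6705368 UMIs against 15298532 to 29001333 in the other 3. The median mitochondrial share of a cell was 3.69% and 3.97% in WT and 2.65% and 2.88% in IL1α-/- tumours. Over all kept barcodes Il1a itself had 67 and 112 UMIs in WT tumours but 1 and 0 in IL1α-/- tumours, and no naive-like T cell held an Il1a UMI in any sample. No barcode of a naive-like T cell was shared with another library, and any 2 libraries shared between 0 and 6 kept barcodes.

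The label was checked on genes that the rule did not use. Levels of cells before the host comparison are plain CPM, the UMIs of a gene per 1000000 UMIs of the cells in question. Tcf7 stood at 399, 294, 352 and 355 CPM in naive-like T cells of WT replicates 1 and 2 and IL1α-/- replicates 1 and 2. In the other T cells of the same samples it stood at 150, 121, 82.1 and 137 CPM. Every sample therefore had more Tcf7 in the naive-like cells, by 2.42-fold to 4.29-fold. S1pr1 was 1.71-fold to 6.08-fold higher in the same sense. Klf2 was 1.25-fold to 4.82-fold higher, while Il7r was only 1.11-fold to 1.29-fold higher in 3 samples and 3.18-fold higher in IL1α-/- replicate 1. Of 21 genes listed for naive and central memory T cells outside the rule, 14 were higher in the naive-like cells in all 4 samples and none was lower in all 4. These are descriptions of cells selected by related genes and carry no test. The share of all genes that stood higher, or lower, in all 4 samples was not counted. The list counts therefore cannot be set against it.

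**Figure D1:**
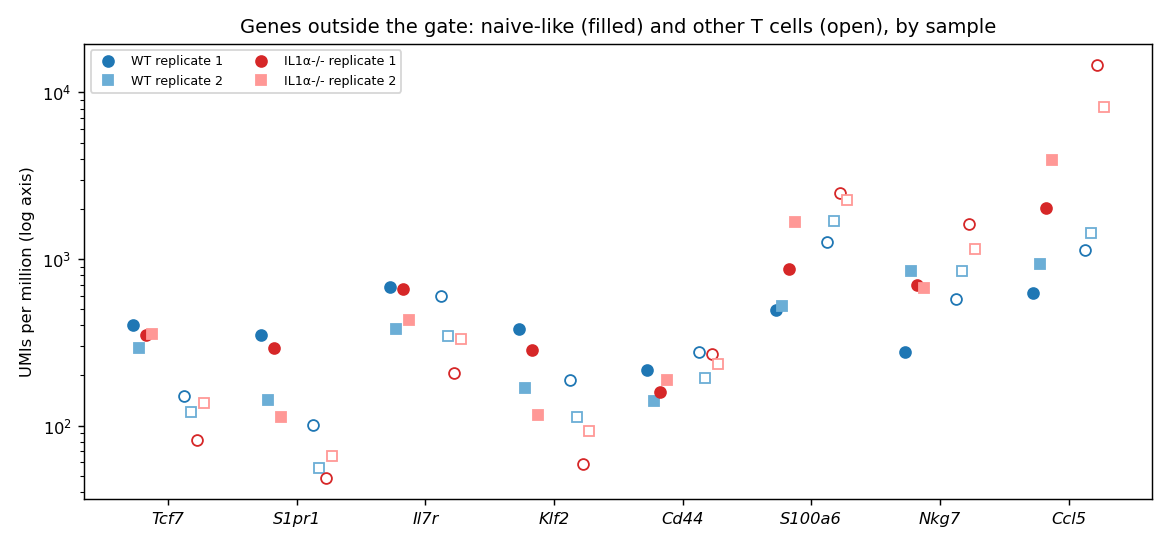
CPM (log axis) of 8 genes outside the rule in naive-like T cells (filled) and other T cells (open), 1 point per sample, circles for replicate 1 and squares for replicate 2. Tcf7, S1pr1, Il7r and Klf2 lie higher in the naive-like cells of each sample, and Cd44, S100a6, Nkg7 and Ccl5 lie lower, Nkg7 in WT replicate 2 by almost nothing (0.995 of the level in other T cells).

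Genes of differentiated T cells stood lower in the naive-like cells but were not absent. Of 20 listed memory and differentiation genes, 16 were lower than in other T cells in all 4 samples, among them Cd44, the hyaluronan receptor raised after antigen contact, at 0.593 to 0.796 of their level. Of 22 cytotoxic effector genes 15 were lower in all 4 samples, and of 12 checkpoint and exhaustion genes 8. The same share over all genes is missing for these counts. Ccl5, a chemokine of memory and effector T cells, was at 0.138 to 0.647 of the level in other T cells. It was nevertheless found in 20.8%, 38.9%, 32.9% and 56.2% of naive-like cells at median depths of 1332 to 4413 UMIs. Among fibroblast barcodes, which should lack it, 2.12% to 6.90% held a Ccl5 UMI at median depths of 3127.5 to 10280 UMIs. The cells chosen by the rule thus held effector transcripts as well as those of the naive profile. Whether the same cells held both was not examined, and naive and central memory cells were not separated.

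Tcf7 followed the number of UMIs of the rule's genes in every sample. In WT replicate 1, Tcf7 stood at 490 CPM in cells with 3 or more UMIs of Lef1, Ccr7 and Dapl1, at 280 in the 73 cells with exactly 2, and at 254 in the 182 cells with exactly 1, just outside the rule. In IL1α-/- replicate 2 the values were 390, 324 and 225 CPM, the last 2 over 66 and 206 cells. S1pr1 in cells with exactly 2 UMIs stood at 231, 162, 399 and 127 CPM in the 4 samples, and with exactly 1 at 190, 92.0, 140 and 103. Both genes were thus higher just inside the threshold than just outside it in every sample, and in WT replicate 1 by little for Tcf7. In cells with 3 or more UMIs S1pr1 stood at 438, 127, 210 and 96.3 CPM, lower than at exactly 2 in 3 of the 4 samples. Il7r had no one direction across the threshold: just inside it stood at 594, 385, 760 and 407 CPM and just outside at 790, 317, 284 and 491.

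The 3 genes of the rule contributed differently from sample to sample. Lef1, a transcription factor of the Wnt pathway, alone admitted 28.7% and 31.9% of the WT cells and 16.4% and 28.1% of the IL1α-/- cells. Ccr7 alone admitted 14.6% and 17.7% of the WT cells against 38.4% and 40.5% of the IL1α-/- cells. Cells with UMIs of 2 or 3 of the genes made up 55.6% and 45.1% against 43.8% and 31.4%. Dapl1, a gene marking resting T cells, had 117 and 73 UMIs in WT and 10 and 4 in IL1α-/- naive-like cells, of which 50 of the 117 lay in 1 cell. In CPM that was 192 and 126 against 83.8 and 8.31. The 2 host groups did not overlap for the Ccr7-only share or for Dapl1, a fact that bears on which cells the rule admits in each group and that was not tested.

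Cells admitted by Ccr7 alone held less S1pr1 than the rest in both WT samples and in IL1α-/- replicate 1. In WT replicate 1 it was at 86.6 CPM in 26 such cells against 409 in the 152 cells with a Lef1 or Dapl1 UMI. In WT replicate 2 it was at 91.4 in 20 cells against 156 in 93, and in IL1α-/- replicate 1 at 249 in 28 against 328 in 45. In IL1α-/- replicate 2 the S1pr1 values were 115 in 49 Ccr7-only cells and 110 in 72 cells with Lef1 or Dapl1, nearly equal. Ccl5 was concentrated on the other side in that sample: it stood at 8978 CPM in the 34 cells admitted by Lef1 alone and at 1216 in the Ccr7-only cells. In IL1α-/- replicate 1 the corresponding values were 5459 in 12 cells and 976 in 28 cells. In the WT samples Lef1-only cells held 1085 and 1063 and Ccr7-only cells 571 and 997. Ccl5 thus went with Lef1-only cells in both IL1α-/- samples, by less in WT replicate 1 and hardly at all in WT replicate 2. In IL1α-/- replicate 1 the Lef1-only value rested on 90 UMIs, found in 41.7% of those 12 cells. In that sample 1 naive-like cell held 60 of all 242 Ccl5 UMIs, and in IL1α-/- replicate 2 1 cell held 309 of 1887. Whether those richest cells were Lef1-only was not examined.

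The share of naive-like cells among T cells was compared at equal depth, since a rule that asks for 2 UMIs is met more often in deeper cells. With each cell thinned to 1000 UMIs and the rule reapplied, naive-like cells were 6.87% of 990 T cells in WT replicate 1 (95% exact Clopper-Pearson interval 5.37 to 8.63%). They were 2.87% of 1010 in WT replicate 2 (1.93 to 4.10%), 2.40% of 1084 in IL1α-/- replicate 1 (1.57 to 3.49%) and 1.79% of 1452 in IL1α-/- replicate 2 (1.17 to 2.61%). Both IL1α-/- samples lay below both WT samples, but WT replicate 1 stood alone and the intervals of the other 3 overlapped. The group means were 4.87% ± 2.83 in WT and 2.09% ± 0.430 in IL1α-/- hosts (SD, n = 2 each), which is -2.78 points apart (two-sided exact permutation p = 0.33, the smallest that 2 against 2 samples allow). Without WT replicate 1 the difference was -0.777 points, and without WT replicate 2 it was -4.77 points. Within replicate number 1 it was -4.47 and within number 2 -1.08 points. The intervals cover counting error only.

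Without thinning the shares were 17.8%, 12.2%, 4.96% and 8.34% of T cells, again without overlap and with an exact permutation p of 0.33. WT tumours gave 823 and 814 other T cells and IL1α-/- tumours 1400 and 1329, so the denominator was larger in the IL1α-/- samples. Of all kept barcodes, naive-like cells made up 1.87% and 0.793% in WT and 1.13% and 0.843% in IL1α-/- samples after thinning. Those groups overlapped (exact permutation p = 1), and leaving out WT replicate 1 turned the difference from -0.349 to 0.191 points. Thinning left out 371 and 351 kept WT barcodes and 904 and 249 kept IL1α-/- barcodes that had too few UMIs. Whether fewer cells were present or fewer were recovered after digestion cannot be told apart here.

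**Figure D2:**
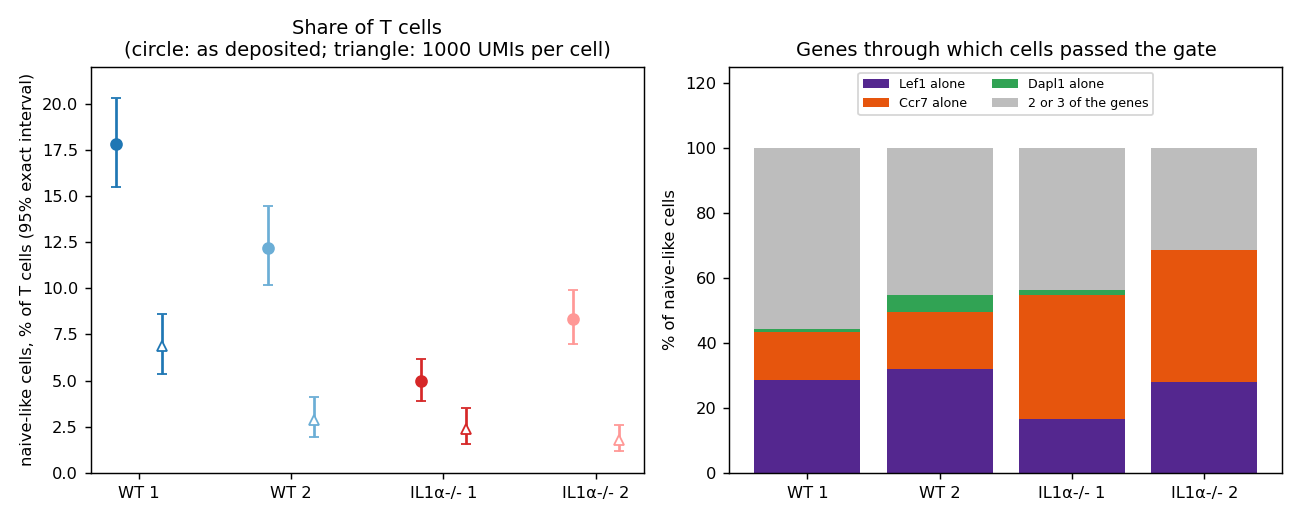
Left, naive-like cells as a percent of T cells in each sample with exact 95% intervals, as deposited (circles) and at 1000 UMIs per cell (triangles); right, percent of naive-like cells by the genes of the rule that admitted them. WT replicate 1 has the highest share in both readings, and the Ccr7-only part is larger in both IL1α-/- samples.

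Both T cell lineages were present, and many cells could not be assigned. Cells with a Cd8a or Cd8b1 UMI and no Cd4 UMI numbered 34, 47, 24 and 50 in WT replicates 1 and 2 and IL1α-/- replicates 1 and 2. Cells with Cd4 only numbered 55, 23, 6 and 19, and 87, 41, 41 and 46 cells had neither. CD8 cells were 38.2% and 67.1% of the assigned cells in WT and 80.0% and 72.5% in IL1α-/- hosts, without overlap, but the exact permutation p was 0.33. At 1000 UMIs per cell only 6 to 21 assigned cells were left per sample and the shares were 33.3%, 71.4%, 90.9% and 33.3%, which overlapped (exact permutation p = 1). The difference of the group means, 9.74 points at 1000 UMIs, was 76.2 points with cells thinned to 700 UMIs (exact permutation p = 0.33, which 2 against 2 samples cannot go below).

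Tests of gene expression between hosts were made on the counts of the naive-like cells summed per sample. Of 5740 genes tested outside the rule, 5 differed in edgeR's quasi-likelihood test at an adjusted p under 0.05, which is 0.0871% of the genes. Icos, Klrc1 and Eif3j1 rose in IL1α-/- hosts (0.0523% of genes), and Xcl1 and Spp1 fell (0.0348%). All 5 lost the threshold, in the same direction, when the cells with the highest doublet scores were left out (adjusted p from 0.1145 to 0.1552 in edgeR) and when a Lef1 or Dapl1 UMI was required of each cell (0.0507 to 0.216). Against log2 fold changes of 2.93, 2.40, 1.65, -3.03 and -3.50, those without the highest doublet scores were 2.92 for Eif3j1, 2.36 for Klrc1, 1.61 for Icos, -2.98 for Xcl1 and -3.49 for Spp1, and with Lef1 or Dapl1 required 3.06, 2.29, 1.49, -3.14 and -3.49. Leaving out WT replicate 1, WT replicate 2 or IL1α-/- replicate 1 raised the count to 95, 134 and 73 genes with all 5 among them, and leaving out IL1α-/- replicate 2 gave 24 genes with 3 of the 5. At an unadjusted p under 0.05 there were 384 genes, 203 higher (3.54%) and 181 lower (3.15%). For 37.4% of all genes the 2 groups did not overlap. With 2 tumours a group and nothing in the labels on separate experiments beyond the collection days, these p-values measure the spread between the samples at hand. Where 1 sample was left out, its group kept 1 tumour. The spread in that group was then not measured but assumed to be like that of the other group. In counts summed per sample, fewer cells that carry a transcript and less of it per cell cannot be told apart. From here on CPM, unless called plain, is scaled by TMM, a correction for unequal composition of the samples.

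**Figure D3:**
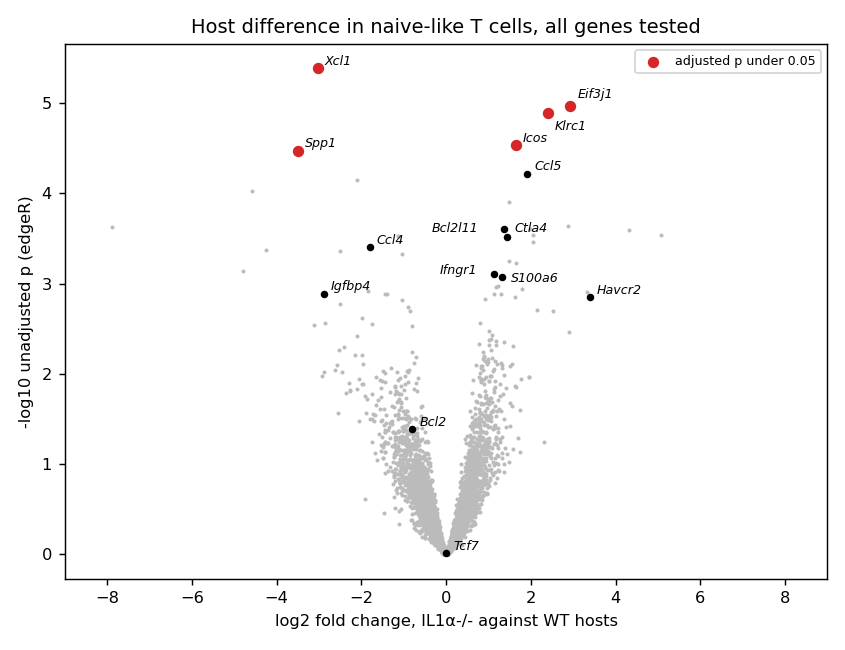
Each point is a gene outside the rule in the naive-like T cells: log2 fold change of IL1α-/- against WT hosts on the x axis and -log10 of the unadjusted edgeR p on the y axis. The 5 red points are the genes with an adjusted p under 0.05; Tcf7 lies near 0 on both axes.

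Xcl1, a chemokine that draws cross-presenting dendritic cells (chromosome 1, 164931644 to 164935527 in GRCm38), had 281 and 523 CPM in WT and 51.6 and 47.7 CPM in IL1α-/- naive-like cells. Both WT samples lay far above both IL1α-/- samples, which were nearly equal. The log2 fold change was -3.03 (SE 0.40), with an adjusted p of 0.0236. Xcl1 transcripts came from few cells: the 168 and 278 UMIs of the WT samples lay in 19 and 28 cells, and the 6 and 22 UMIs of the IL1α-/- samples in 5 cells each. A single cell held 63 UMIs in either WT sample, and in WT replicate 1 that sample's CD4 cells held 64 Xcl1 UMIs in 2 cells. The summed list of natural killer and innate lymphoid markers moved in the same direction in the naive-like cells. It stood at 967 and 958 plain CPM in WT and 704 and 827 in IL1α-/- samples. Of the 9 of 12 such markers that passed the filter 6 were lower, 3 of them at an unadjusted p under 0.05 in edgeR. The other 3 were higher, 1 of them at an unadjusted p under 0.05. Ncr1, a lower one, had 30.1 and 62.1 against 17.2 and 15.2 CPM. Klrb1c had 5 and 9 UMIs in WT and 2 and 11 in IL1α-/- samples, which per summed UMI was higher in both IL1α-/- samples. The list also holds Gata3, Il1rl1 and Rora, which stand among the helper subset factors too. Gata3 had 94 and 69 UMIs in WT against 10 and 31 in IL1α-/- samples, and Il1rl1 60 and 53 against 1 and 26. How much of the summed difference lay in them was not examined. Among cells without a UMI of Ncr1, Klrb1c, Klre1 or Siglech, Xcl1 was still called (-2.44, adjusted p = 0.0131, edgeR). Other T cells had a like difference, with 456 and 460 CPM in WT against 92.3 and 58.4 in IL1α-/- samples, and the interaction of host and population was -0.25 (adjusted p = 1, edgeR). Within CD8 naive-like cells Xcl1 stood at 510 and 638 against 97.8 and 9.81 CPM, which edgeR put at -4.41 on the log2 scale (SE 0.59, adjusted p = 0.00935). The IL1α-/- CD8 values rest on 4 and 2 Xcl1 UMIs, and DESeq2 gave an adjusted p of 0.152.

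Icos, the inducible costimulator that T cells raise after receptor engagement (chromosome 1, 60977927 to 61000320), had 194 and 188 CPM in WT and 559 and 631 CPM in IL1α-/- hosts. The WT samples were nearly equal and both IL1α-/- samples lay well above them. Its log2 fold change was 1.65 (SE 0.26, adjusted p = 0.0389, edgeR), and the Icos UMIs were spread over 58, 43, 25 and 75 cells. With 3 UMIs of the rule's genes required, its adjusted p was 0.0734 and that of Klrc1 0.160. Without IL1α-/- replicate 2 the log2 fold change was 1.54 and the adjusted p 0.0625. Among CD8 naive-like cells Icos was at 148 and 105 against 538 and 544 CPM, which edgeR put at 2.15 on the log2 scale (SE 0.34, adjusted p = 0.0160). Icos was also higher in other T cells of IL1α-/- hosts, at 848 and 698 against 281 and 220 CPM, and the interaction was 0.00 (adjusted p = 1).

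Klrc1 encodes NKG2A, an inhibitory receptor of natural killer and CD8 T cells (chromosome 6, 129666015 to 129678973). It stood at 31.8 and 30.1 CPM in WT and at 206 and 141 CPM in IL1α-/- naive-like cells, which edgeR put at 2.40 on the log2 scale (SE 0.35, adjusted p = 0.0249). Both IL1α-/- samples lay above both WT samples, and CD8 cells held 8, 7, 17 and 38 Klrc1 UMIs where CD4 cells held 0, 0, 1 and 2. Its partner chain Klrd1 was at 119 and 213 against 447 and 377 CPM, 1.30 apart on the log2 scale. The adjusted p of Klrd1 was 0.193 in edgeR and 0.0390 in DESeq2, and 10 of 14 alternatives left it uncalled. Klrc1 was likewise higher in other T cells of IL1α-/- hosts, at 391 and 245 against 71.2 and 65.2 CPM, with an interaction of 0.26 (adjusted p = 1).

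Spp1, which encodes the secreted protein osteopontin, stood at 88.6 and 79.0 CPM in WT and 17.2 and 4.33 CPM in IL1α-/- hosts (log2 fold change -3.50, SE 0.57, adjusted p = 0.0389, edgeR). The WT values rested mainly on 1 cell each, which held 32 of 53 and 24 of 42 Spp1 UMIs. Both IL1α-/- samples had 2 UMIs, so the summed rate was 8.23% of that in WT with an exact counting interval from 2.20 to 21.8%. Spp1 lost the call without IL1α-/- replicate 2 (log2 fold change -2.27, adjusted p = 0.272). It also lost it among cells without a UMI of other cell types' markers (-2.23, adjusted p = 0.429).

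Eif3j1, a subunit gene of translation initiation factor 3, had 11.7 and 30.1 CPM in WT against 181 and 145 CPM in IL1α-/- hosts (log2 fold change 2.93, SE 0.42, adjusted p = 0.0249, edgeR). Its near-identical copy Eif3j2 went the other way, at 38.5 and 58.3 against 0 and 2.17 CPM, so reads of the pair may have been split differently and both values are uncertain. Their sum was 50.2 and 88.4 against 181 and 147 CPM. Eif3j1 lies 7.24 megabases and Bcl2l11 1.14 megabases from Il1a on chromosome 2, the locus at which the hosts differed by design. Bcl2l11, the cell death gene Bim, was at 137 and 124 against 336 and 338 CPM (1.36 on the log2 scale, adjusted p = 0.0975 in edgeR). DESeq2 called Bcl2l11 (1.38, adjusted p = 0.0207), while 8 of 15 alternatives left it uncalled. Leaving out 1 sample gave Bcl2l11 log2 fold changes from 1.30 to 1.43. What part the shared chromosome had in either value was not tested.

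**Figure D4:**
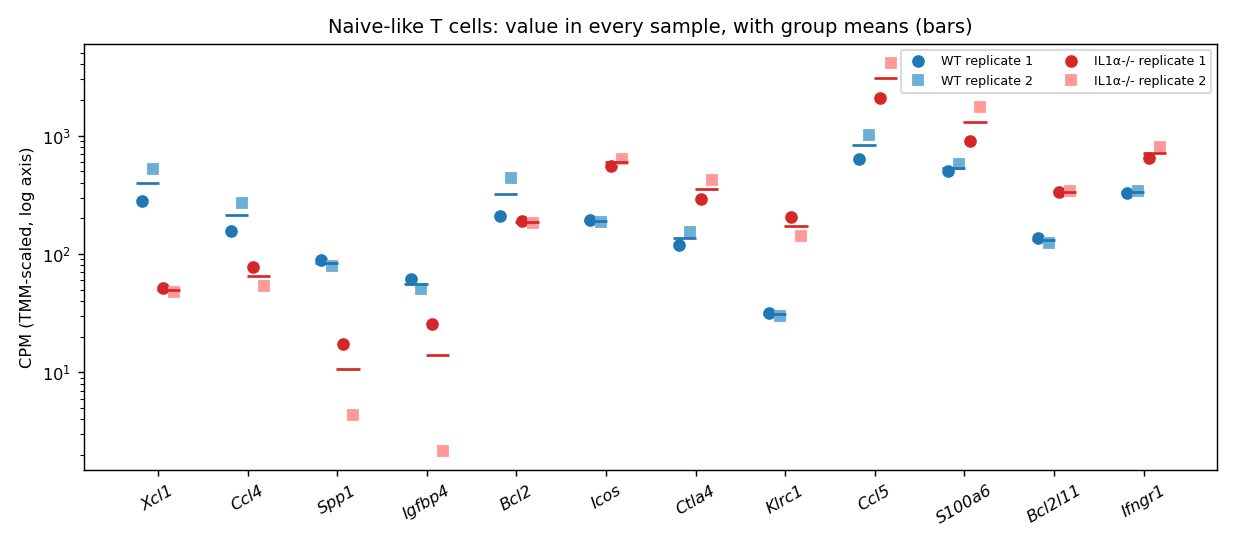
CPM (log axis) of 12 genes in the naive-like T cells of each sample, with the mean of each host group as a bar. Xcl1 and Spp1 lie lower, and Icos and Klrc1 higher, in both IL1α-/- samples; the other 8 genes did not reach an adjusted p of 0.05 in edgeR with all 4 samples.

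Outside the rule, genes of the naive and central memory program showed no difference called by edgeR between hosts with all 4 samples. The rule had admitted the cells of both hosts by Lef1, Ccr7 and Dapl1. How far that selection made the hosts alike in related genes was not tested. Dapl1 itself, left out here as a rule gene, had a lower CPM in both IL1α-/- samples, as given above. Tcf7 had 406 and 322 CPM in WT and 361 and 371 in IL1α-/- naive-like cells, so the IL1α-/- values lay between the WT values (log2 fold change 0.01, SE 0.27). Il7r had 696 and 418 against 680 and 446 CPM, which also overlapped. S1pr1, at 355 and 156 against 301 and 117 CPM, and Klf2, at 390 and 184 against 293 and 121 CPM, were higher in replicate 1 of both groups. That spread within groups was larger than the difference between them, and without WT replicate 2 the log2 fold change of Klf2 was -1.10. Of 21 listed genes outside the rule 20 passed the filter, 8 higher and 12 lower in IL1α-/- hosts with a median log2 fold change of -0.04, and none was called. Over all genes the median was -0.02. Within the list, Igfbp4 had the smallest p, with 61.9 and 50.8 against 25.8 and 2.17 CPM (log2 fold change -2.89, adjusted p = 0.193). The IL1α-/- values of Igfbp4 rest on 3 and 1 UMIs, and 8 of 13 alternatives left it uncalled. Leaving out 1 sample gave Igfbp4 log2 fold changes from -4.55 to -1.12. Bcl2, which keeps resting T cells alive, stood at 211 and 437 against 189 and 182 CPM (-0.80, adjusted p = 0.710), and Cd27, a costimulatory receptor, at 137 and 171 against 258 and 264 CPM (0.77, adjusted p = 0.562).

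Genes of memory and differentiated T cells leaned to higher values in IL1α-/- hosts, and edgeR called none of them. Of 19 genes that passed the filter, 15 were higher and 4 lower with a median log2 fold change of 0.52, and 5 higher and 1 lower had an unadjusted p under 0.05. S100a6, a calcium-binding protein raised in antigen-experienced cells, had 502 and 574 CPM in WT and 895 and 1733 CPM in IL1α-/- hosts. Its groups did not overlap, but the IL1α-/- samples also lay far from each other, and the difference of 1.31 (log2, SE 0.30) had an adjusted p of 0.172 in edgeR. DESeq2 called S100a6 (1.32, adjusted p = 0.0104), while 8 of 15 alternatives left it uncalled. Leaving out 1 sample gave S100a6 log2 fold changes from 0.73 to 1.70, the lowest without IL1α-/- replicate 2. Among CD8 naive-like cells S100a6 did pass, at 482 and 264 against 1076 and 1982 CPM (log2 fold change 2.14, adjusted p = 0.0188, edgeR). Ly6c2, a surface protein of memory CD8 cells, was at 202 and 423 against 490 and 743 CPM (1.01, adjusted p = 0.507). Itgae, the integrin of tissue-resident cells, went the other way, with 47 and 11 UMIs in WT and 0 and 6 in IL1α-/- samples (adjusted p = 0.511). Cd44 did not separate the hosts, at 219 and 154 against 163 and 195 CPM.

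Of 22 cytotoxic effector genes 17 passed the filter, 13 higher and 4 lower, with a median log2 fold change of 0.37 and Xcl1 as the 1 gene called by edgeR. DESeq2 called Ccl5 and Klrd1 of the same list (adjusted p = 2.83e-05 and 0.0390). Ccl5 had 635 and 1018 CPM in WT and 2082 and 4089 CPM in IL1α-/- naive-like cells. The groups did not overlap, and the difference of 1.91 on the log2 scale (SE 0.33) had an adjusted p of 0.0583 in edgeR. It passed the threshold in 11 of 15 alternatives, and leaving out 1 sample gave log2 fold changes from 1.33 to 2.32. It did not pass without IL1α-/- replicate 2 (0.119), with 3 UMIs of the rule's genes required (0.0802), without the highest doublet scores (0.175) or with cells thinned to 1000 UMIs (0.344). Free RNA, taken from barcodes with at most 100 UMIs, held 379 and 639 plain CPM of Ccl5 in the WT libraries and 3366 and 2432 in the IL1α-/- libraries. Free Ccl5 thus moved with the host in the same direction, and its part in the difference was not tested. Ccl4, a chemokine released on receptor engagement, was at 157 and 271 against 77.4 and 54.2 CPM (-1.80, adjusted p = 0.114, edgeR). Its 94 and 144 UMIs in WT samples lay in 13 and 11 cells, of which 1 cell held 38 and 58, and the 9 and 25 UMIs of the IL1α-/- samples lay in 3 and 11 cells. Leaving out 1 sample gave Ccl4 log2 fold changes from -2.16 to -1.36, and 9 of 13 alternatives left it uncalled.

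Checkpoint genes also leaned to higher values: 9 of 12 passed the filter, 7 higher and 2 lower with a median of 0.94 on the log2 scale, 5 of them at an unadjusted p under 0.05 and none called by edgeR. Ctla4, the inhibitory receptor that competes with Cd28, had 119 and 152 CPM in WT and 293 and 423 CPM in IL1α-/- hosts (1.44, SE 0.30, adjusted p = 0.0975 in edgeR). DESeq2 called Ctla4 (adjusted p = 0.0207), as did edgeR with at least 1000 UMIs per cell (0.0259), while 7 of 14 alternatives left it uncalled. Leaving out 1 sample gave Ctla4 log2 fold changes from 1.11 to 1.65. In CD8 naive-like cells Ctla4 rose from 74.2 and 88.1 to 318 and 466 CPM (2.31, SE 0.36, adjusted p = 0.0160, edgeR). That call was lost without IL1α-/- replicate 2 (adjusted p = 0.122). Havcr2, which encodes TIM-3, had 0 and 5 UMIs in WT and 8 and 19 UMIs in IL1α-/- cells (adjusted p = 0.198). Lag3 stood at 21.7 and 43.3 against 112 and 58.5 CPM (1.22, adjusted p = 0.591). Without WT replicate 2, where 1 cell held all 5 WT Havcr2 UMIs, 1 WT sample was left and the WT spread was not measured. Lag3 was then at 1.74 on the log2 scale. Havcr2 stayed uncalled in 7 of 10 alternatives and Lag3 in 12 of 13.

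Genes of recent T cell receptor stimulation were split, 12 higher and 9 lower of 21 that passed (median 0.23), with Icos as the 1 gene called by edgeR. Tnfaip3, a brake on NF-kB, was at 523 and 241 against 757 and 849 CPM, and Nr4a2 at 120 and 137 against 258 and 221 CPM, with adjusted p of 0.497 and 0.507 in edgeR. Leaving out 1 sample gave Tnfaip3 log2 fold changes from 0.63 to 1.74, and 13 of 15 alternatives left it uncalled. Myc had 15 and 22 UMIs in WT and 1 UMI in each IL1α-/- sample. That was 10.6% of the WT rate with an exact counting interval from 1.23 to 41.0% (adjusted p = 0.312, edgeR). Leaving out 1 sample gave Myc log2 fold changes from -3.78 to -1.91. Cd69, an early activation marker that holds T cells in tissue, was at 154 and 96.0 against 68.8 and 106 CPM and overlapped between hosts.

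In the interferon response list 25 of 37 genes passed, 20 higher and 5 lower with a median of 0.27, none called by edgeR and 1 at an unadjusted p under 0.05. That gene, Samhd1, a nucleotide hydrolase, was at 187 and 203 against 250 and 345 CPM. Homing and migration genes counted 14 higher and 10 lower of 24 (median 0.30), with 6 higher and 1 lower at an unadjusted p under 0.05 and none called by edgeR. Among them the integrin chains Itgal, at 176 and 207 against 284 and 338 CPM, and Itga4, at 181 and 214 against 353 and 293 CPM, were higher in both IL1α-/- samples with adjusted p of 0.594 and 0.658.

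Cytokine receptor and signalling genes were balanced, 16 higher and 17 lower of 33 with a median of -0.02, and edgeR called none. Ifngr1, a chain of the interferon gamma receptor, had 328 and 341 CPM in WT and 645 and 797 CPM in IL1α-/- hosts. The values of each host lay close together and apart from the other host's, with a log2 fold change of 1.12 (SE 0.26) and an adjusted p of 0.165 in edgeR. DESeq2 called Ifngr1 (1.13, adjusted p = 0.0207), while 11 of 15 alternatives left it uncalled. Leaving out 1 sample gave Ifngr1 log2 fold changes from 0.946 to 1.27. Il6ra, the interleukin 6 receptor chain of naive cells, was at 85.3 and 62.1 against 51.6 and 17.3 CPM (-1.50, adjusted p = 0.507). Il1r1, the receptor that binds interleukin 1α, did not pass the filter in naive-like cells. Il1rl1, the receptor for interleukin 33, had 60 and 53 UMIs in WT and 1 and 26 in IL1α-/- samples (adjusted p = 0.560), and Gata3, a factor of type 2 helper cells, stood at 157 and 130 against 86.0 and 67.2 CPM (-0.98, adjusted p = 0.507).

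The remaining lists held no gene called by edgeR, while DESeq2 called Bcl2l11 of the survival and death list. T cell receptor and signalling genes were 16 higher and 10 lower of 26 (median 0.17), survival and death genes 14 and 6 of 20 (0.05), quiescence factors 12 and 6 of 18 (0.10) and helper subset factors 5 and 4 of 9 (0.25). In the quiescence list Tob1, an antiproliferative factor, had the smallest p, at 65.2 and 50.8 against 155 and 102 CPM (1.04, adjusted p = 0.507). The co-receptor gene Cd8b1 was at 145 and 292 against 422 and 379 CPM (0.87, adjusted p = 0.602 in edgeR, and 1.45 without WT replicate 2). Cd28 was at 405 and 205 against 465 and 477 CPM (0.62, adjusted p = 0.754). The lists share some genes, and genes entered a count only when enough UMIs passed the filter.

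**Figure D5:**
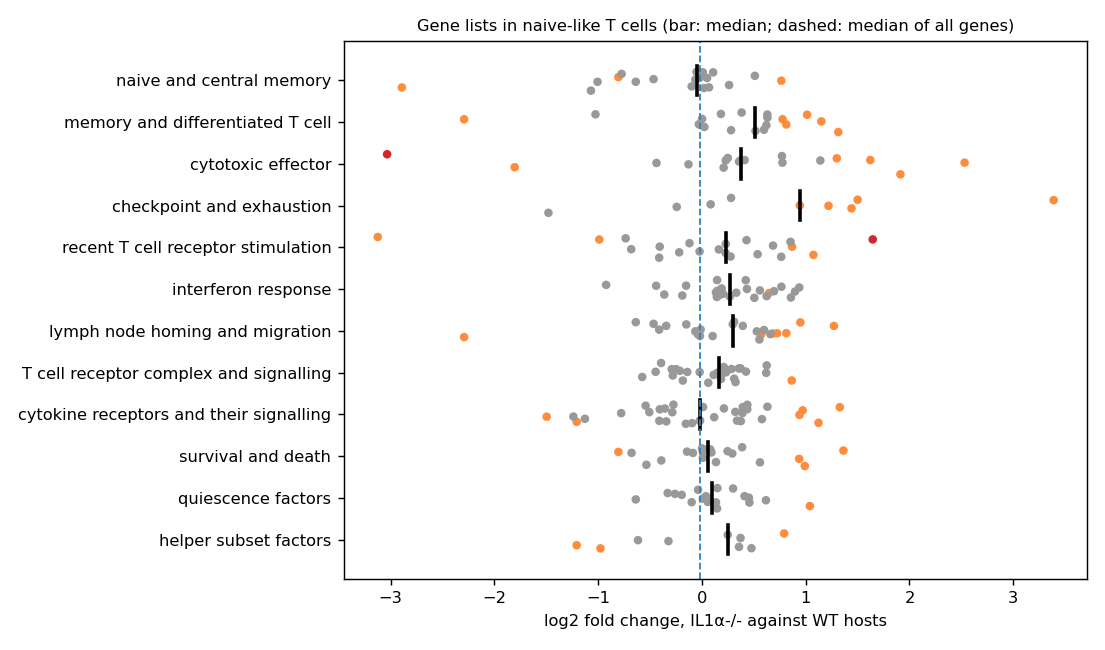
Log2 fold changes (IL1α-/- against WT hosts) of the genes of 12 lists in naive-like T cells, 1 point per gene that passed the filter; red points have an adjusted p under 0.05, orange points an unadjusted p under 0.05. Black bars are list medians, from -0.04 for naive and central memory genes to 0.94 for checkpoint genes, beside the dashed median of all genes.

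Within CD8 naive-like cells alone, 2527 genes were tested and 6 called, which is 0.237%. Icos, Ctla4, S100a6 and Ptms rose (0.158% of genes) and Xcl1 and Rps15 fell (0.0791%). At an unadjusted p under 0.05, 4.12% of genes were higher and 5.07% lower, and the groups did not overlap for 39.9%. Among CD8 cells without a UMI of Ncr1, Klrb1c, Klre1 or Siglech, genes of natural killer and plasmacytoid dendritic cells, Ctla4, S100a6 and Ptms lost the threshold (adjusted p of 0.112, 0.155 and 0.155). Ptms, a small chromatin-associated acidic protein, was at 64.9 and 50.3 against 391 and 231 CPM (log2 fold change 2.32, SE 0.43, adjusted p = 0.0477, edgeR). Rps15 encodes a ribosomal protein and stood at 3597 and 3696 against 1370 and 1388 CPM (-1.40, SE 0.23, adjusted p = 0.0188). CD4 naive-like cells were not tested, because IL1α-/- replicate 1 had only 6 of them.

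The host difference itself was compared between naive-like and other T cells by the interaction of host and population, with the sample as a block. Of 9432 genes, 3 were called (0.0318%), all with a lower host difference in the naive-like cells. Ccl4 stood lower in IL1α-/- naive-like cells (157 and 271 against 77.4 and 54.2 CPM) while other T cells had 180 and 527 against 579 and 505 CPM. The difference of the 2 host effects was -2.54 on the log2 scale (SE 0.34, adjusted p = 0.0164, edgeR). It lost the threshold with the highest doublet scores removed (-2.07, adjusted p = 1), with cells thinned to 1000 UMIs (-1.29, adjusted p = 1), with a Lef1 or Dapl1 UMI required (-2.74, adjusted p = 0.159) and without the natural killer and plasmacytoid genes named above (-1.54, adjusted p = 0.682). Rgs16, a regulator of chemokine receptor signalling, stood at 147 and 149 against 138 and 65.0 CPM in naive-like cells and 107 and 127 against 394 and 188 CPM in other T cells (-1.89, SE 0.29, adjusted p = 0.0495). It lost the call in 8 of 14 alternatives at adjusted p from 0.0536 to 1 in edgeR, among them the fits without IL1α-/- replicate 1 (0.131) and without IL1α-/- replicate 2 (0.0616). Igkc, an immunoglobulin light chain that T cells do not make, was called at -5.89 (adjusted p = 0.00183). Other T cells of IL1α-/- replicate 1 held 834 CPM of it against 15.8 to 19.5 in the other 3 samples. Without that replicate its adjusted p was 1, and without the innate genes named above 0.565 (-3.35, edgeR). Of the 5 genes called in the naive-like cells none had an interaction past the threshold.

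Transcripts of other cell types were present in the naive-like cells at unequal levels. Markers of tumour epithelium summed to 5197 plain CPM, the scale of this paragraph, in WT replicate 1 against 129, 33.5 and 76.9 in the other samples, and in WT replicate 1 they took at least 1% of the UMIs in 3 cells. Fibroblast markers showed the same sample apart, at 771 against 82.5, 67.0 and 170 CPM. Macrophage markers ran from 711 to 1039 CPM. Natural killer and innate lymphoid markers summed higher in both WT samples, with the values and limits given for Xcl1 above and Klra8 at 0 in all samples. Plasmacytoid dendritic cell markers were at 776 and 289 against 788 and 320 CPM, with Siglech in 8, 1, 2 and 2 cells. Other T cells had 371 and 366 against 241 and 181 CPM of them, so naive-like cells stood higher except in WT replicate 2. Of these 8 markers 5 were higher in naive-like than in other T cells in all 4 samples, and 0 were lower in all 4. That count too has no share over all genes beside it. The B cell markers Cd79a, Ms4a1 and Pax5 were at 0 in every sample. Gamma-delta T cell markers summed to 8.38 to 29.2 and neutrophil markers to 0 to 54.2 CPM. Dendritic cell markers summed to 688 and 299 against 411 and 765, and B and plasma cell markers as a list to 110 to 235 CPM. Xcl1, Icos, Klrc1 and Eif3j1 kept their calls among cells without a UMI of Cd79a, C1qa, C1qb, Csn3, Krt8, Col1a1 or S100a8. A separate alternative left out cells with a UMI of Ncr1, Klrb1c, Klre1 or Siglech, and Xcl1 kept its call there. For other marker transcripts the part in these results was not tested.

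Genes that track RNA quality and handling leaned lower in IL1α-/- hosts. Of 77 cytosolic ribosomal protein genes, 24 were higher and 53 lower in IL1α-/- naive-like cells with a median log2 fold change of -0.24. The 13 mitochondrial genes had a median of -0.50, with 5 higher and 8 lower. All 7 heat shock genes were lower with a median of -0.43, and 2 of them fell much further. Hspa1a had 64 and 15 UMIs in WT against 0 and 0 in IL1α-/- samples, and Hspa1b 101 and 20 against 1 and 2. None of these was called among all naive-like cells, and their part in the called differences was not tested.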

How the data were processed

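Droplet-based 3' RNA libraries (10x Genomics v3.1 chemistry) of 4 dissociated tumours were analysed. The deposited values are raw UMI counts per gene and barcode, made with Cell Ranger 3.1.0 per the file headers and the submitters' processing notes, on a combined human and mouse (mm10) reference and without removal of empty barcodes. Mouse genes were used. Depth per library is in the text. The members and gene lists were chosen with earlier results of these data known. Counts of the member cells were summed per sample. The test between hosts was that of edgeR 4.0.16 under R 4.3.3 (filterByExpr, TMM, quasi-likelihood test, Benjamini-Hochberg adjustment, threshold 0.05), with at least 20 cells required in every sample. The scripts were tested on simulated data. Named are genes of the rule, called genes, up to 4 genes of each list with the smallest p, and a fixed set of genes such as Tcf7. Ribosomal, mitochondrial and unnamed models were left out of the names except Rps15 and Eif3j2, chosen after their values were seen. Hspa1a and Hspa1b were also chosen after their values were seen. Gene positions are 1-based, from GENCODE vM21 (GRCm38), matched by identifier. Doublets were not removed; Scrublet (scanpy 1.11.5) served as an alternative, as did DESeq2 1.42.0, no filter, the replicate block, other depth and rule limits, and leaving out each sample. Shares were compared by exact permutation. Some genes that this rule names are not reported here.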

Additional observations from a re-analysis of the deposited data

Results flagged for a closer look

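The host difference was not the same in naive-like and other T cells for 3 genes by edgeR's interaction test: Igkc with a log2 difference of -5.89 (adjusted p = 0.00183), Ccl4 with -2.54 (adjusted p = 0.0164) and Rgs16 with -1.89 (adjusted p = 0.0495). Human genes of the combined reference, which the comparisons did not use, held 95 UMIs in naive-like T cells: 40 and 31 in WT and 3 and 21 in IL1α-/- cells. That is 65.7, 53.3, 25.1 and 43.6 per 1000000 mouse UMIs, spread over 39, 30, 3 and 20 cells, above the 3 UMIs that a count of 0 allows in every sample but IL1α-/- replicate 1. Groups of 2 samples allow no check for an outlying sample.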

How the results depend on the processing

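The number of genes called in naive-like T cells depended on the method. Against 5 in edgeR it was 17 with DESeq2 (which gave no adjusted p for 4 of the 5), 94 without the filter, 23 with at least 1000 UMIs per cell, 2 with cells thinned to 1000 UMIs, 0 with the highest Scrublet scores removed (368 at an unadjusted p under 0.05 in edgeR) and 24 to 134 leaving out 1 sample. Among cells with a Lef1 or Dapl1 UMI it was 2, none of them among the 5, and among cells without a UMI of Ncr1, Klrb1c, Klre1 or Siglech 14; these 2 alternatives were chosen after seeing the data. With the replicate block it was 94, 5 of them shared; the deviations of same-numbered samples correlated at r = 0.061 across 5740 genes, over 2 pairs, which does not show that the numbers pair the samples. In CD8 cells the count of 6 became 14 with DESeq2, 32 without the filter, 60 with the replicate block, 3 without the innate genes and 22 to 45 leaving out 1 sample; limits of 1000 UMIs, thinning, 3 rule UMIs or a Lef1 or Dapl1 UMI left too few cells and were not run, nor was any CD4 fit. For the interaction, 3 became 22 without the filter, 27 with the block, 10 with 3 rule UMIs, 9 without the innate genes, 1 each with Scrublet, thinning or a Lef1 or Dapl1 UMI, and 2 to 29 leaving out 1 sample. Where 1 sample was left out, the lone sample of its group was assumed to vary like the others.

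All 5 called genes lost the threshold with Scrublet (adjusted p from 0.1145 to 0.1552) and with a Lef1 or Dapl1 UMI required (0.0507 to 0.216), in the same direction. The share of T cells moved from -2.78 to -8.34 points without thinning (-4.77 to -0.777 leaving out 1 sample), the share of kept barcodes ran from -0.889 to 0.191 and the CD8 share, 9.74 points, was 76.2 at 700 UMIs, -20.1 with Lef1 or Dapl1 and -19.0 to 38.5 leaving out 1 sample. Several log2 values changed sign, and without WT replicate 2 those of Ly6a, Cd8a and Klf2 were 1.58, 1.60 and -1.10. Leaving out 1 sample gave -0.21 to 1.58 for Ly6a, -1.23 to 0.0245 for Klf2, -0.14 to 0.18 for Tcf7, -1.11 to 0.23 for S1pr1, -0.35 to 0.37 for Il7r, -0.24 to 0.25 for Cd44, -0.88 to 0.22 for Cd4 and -0.51 to 1.60 for Cd8a. Tcf7 was -0.049 without the filter, -0.039 at 1000 UMIs, -0.0094 at 10% mitochondrial UMIs, -0.099 at 3 rule UMIs, -0.16 thinned, -0.064 without other types' markers and -0.095 with Lef1 or Dapl1. With the replicate block Il7r was 0.034 and Cd44 0.026; with DESeq2 Il7r was 0.000162. Cd44 was 0.098 with Scrublet and 0.015 without other types' markers, Cd8a -0.022 at 3 rule UMIs and -0.069 with Lef1 or Dapl1, Cd69 0.016 at 3 rule UMIs and Trbc1 0.013 with Lef1 or Dapl1. Causes were not tested. Of 834 alternatives to 63 named results, 690 kept direction and side of the threshold. Only 13 of the 63 were called in the main fits, so most results counted as kept when they stayed uncalled. A call was lost in 35 alternatives and gained in 81, and the direction changed in 28. Named results without an adjusted p from DESeq2 (29) were not counted.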
